A study of Mus musculus with 3 samples.

Results

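The genes that encode the proteasome were followed in mouse ESCs in which the deubiquitinase family Usp17l had been knocked down. Members were taken by symbol from the deposited expression table: every gene named Psma, Psmb, Psmc, Psmd, Psme or Psmf with a number, leaving out pseudogenes and the immunoproteasome subunits Psmb8, Psmb9 and Psmb10. The rule found 43 genes among the 32545 in the table, by symbol and not by any measured value. Of these, 42 passed a filter on low values, which asked for an average of 0.5 TPM or more over the 3 samples, as did 19950 genes in all. TPM is a read share corrected for transcript length, and each column of the table sums to 1000000. Psmb11, the thymus-specific catalytic subunit, was the member below the filter, with a TPM of at most 0.034 in any knockdown column, against 0.061 in Control.

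All samples were E3 mouse ESCs at passage 7. KD4 and KD9 are stable lines that express an shRNA against the region common to the Usp17l family, each grown from a single picked clone under puromycin, and Control is E3 with the empty vector. The sources used here do not give which of the designed shRNAs each line carries. E3 cells were kept on mouse embryonic fibroblast feeders according to the study's methods, so the RNA can hold a share from fibroblasts. The labels give 1 sample for each of KD4, KD9 and Control. The table holds 2 columns for each knockdown line, so the columns of a line are shown separately but were averaged and counted as 1 replicate. TPM keeps no sequencing depth, and the depth behind each value is therefore unknown.

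The targeted gene Usp17le was at a TPM of 0.151 and 0.064 in the KD4 columns and 0.331 and 0.374 in the KD9 columns, against 1.82 in Control, and all 5 Usp17l genes were below Control in every knockdown column. The pluripotency gene Pou5f1 was at a TPM of 1042 in KD4 and 689 in KD9, against 698 in Control. Fibroblast genes differed between the lines: the summed TPM of 15 fibroblast markers was 1775 in KD4 and 4100 in KD9, against 5839 in Control. All 15 were lower in KD4 than in Control, and 12 were lower in KD9. None of the 15 was at 0. The lowest was Lum, a proteoglycan of connective tissue, at a TPM of 0.299 in KD4 and 12.8 in KD9, against 2.07 in Control. The columns of a line also differed: the second KD4 column was above the first for 32 of the 42 measured members, beside 10777 of all 19950 genes. The median gap was 0.10 on the log2 scale, where the median over all genes was 0.02. In KD9 the second column was above the first for 13 members, beside 9195 of all genes.

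The proteasome degrades proteins tagged with ubiquitin chains, and deubiquitinases such as USP17L remove such tags. Its core particle is a barrel of stacked rings, the outer rings built of α subunits (Psma genes) that control entry and the inner rings of β subunits (Psmb genes) that cut the chain. The regulatory particle caps the barrel, with a base of ATPases (Psmc genes) that unfold the substrate and a lid of Psmd subunits that includes the deubiquitinase Psmd14. Core and regulatory subunits are needed in fixed proportions, and in mammalian cells their genes can be raised together through the transcription factor Nfe2l1 when proteasomes are short. The activators encoded by Psme genes open the barrel without ATP or ubiquitin, and 2 of them, Psme1 and Psme2, are known as interferon-induced partners of the immunoproteasome.

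The core and regulatory genes stayed close to Control in both lines, whereas Psme1, Psme2 and Psme2b were lower in KD4. None of the 15 measured core genes and none of the 17 regulatory genes was past 2-fold in either line, and 1 of them, Psma8, was past a smaller threshold, more than 25% higher or more than 20% lower than Control. In KD4, 2 members were more than 2-fold lower than in Control (Psme2 and Psme2b) and 0 were more than 2-fold higher. Over all tested genes, 9.50% were more than 2-fold lower in KD4 and 5.18% more than 2-fold higher. In KD9 no member was past 2-fold in either direction, where 5.45% of all genes were lower and 4.21% higher by that much. No member was past 2-fold in the same direction in both lines, beside 3.20% of all genes lower and 2.47% higher.

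With this smaller threshold, KD4 had 3 members lower (Psme1, Psme2 and Psme2b) and 1 higher (Psma8) than Control, beside 28.1% of all genes lower and 22.2% higher. KD9 had 1 member lower (Psme3) and 0 higher, beside 22.7% and 16.7% of all genes. None was past it in the same direction in both lines, where 13.4% of all genes were lower and 9.62% higher. The counts of members past either fold were thus below the share of all genes in each line. The members were also more abundant than most genes, with a median TPM of 109 in KD4 and 103 in KD9, against 113 in Control, where the median over all tested genes was 10.15 in KD4 and 10.6 in KD9, against 10.8 in Control. The part of that abundance in these counts was not tested.

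**Figure D1:**
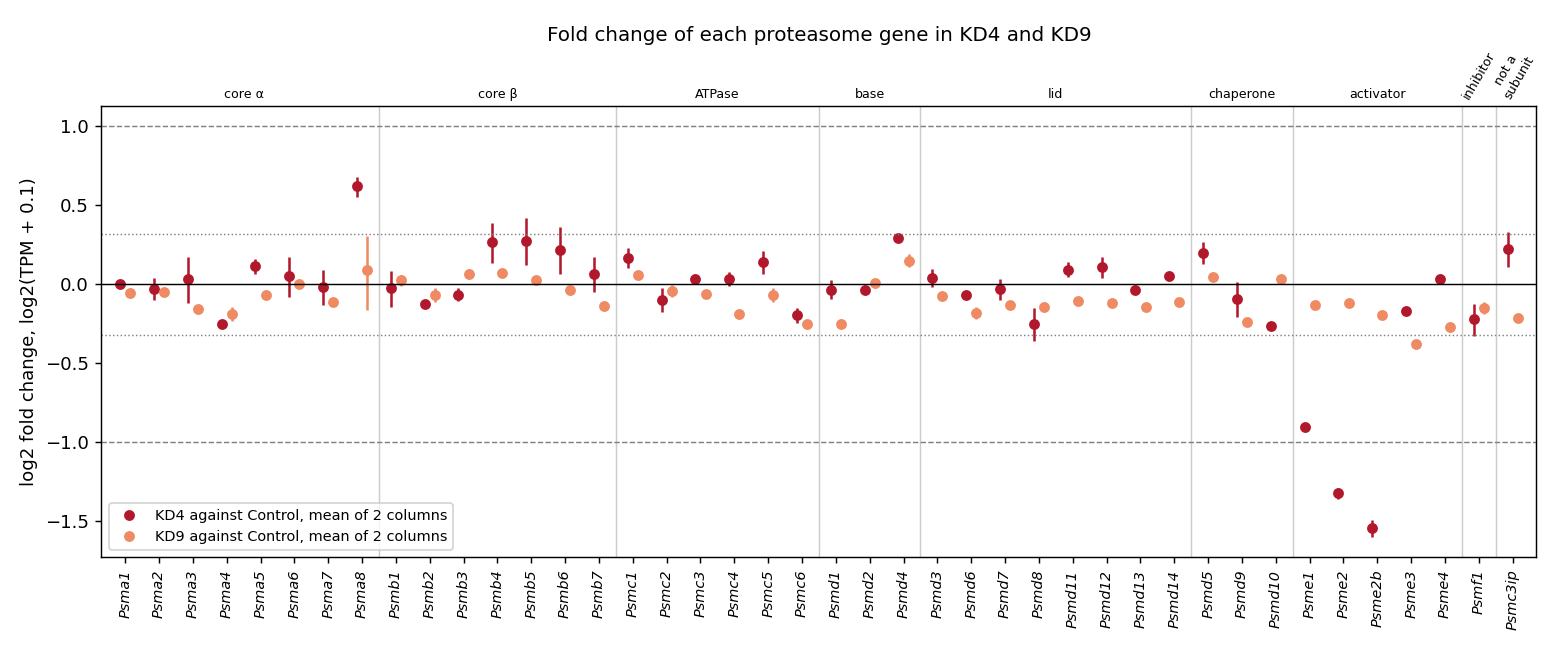
Log2 fold change of each of the 42 measured members against Control (vertical axis, log2(TPM + 0.1)) in KD4 and KD9, ordered by class along the horizontal axis. Points are the mean of the 2 columns of a line, bars span those columns, dotted lines mark 25% higher and 20% lower, and dashed lines 2-fold. Psme1, Psme2 and Psme2b lie at -0.90, -1.32 and -1.54 in KD4, apart from the other members.

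The median log2 fold change of the 15 measured core genes was 0.04 in KD4 and -0.05 in KD9. The KD9 value turned to 0.02 when the columns were rescaled by median ratios, and the KD4 value was -0.05 with the first column of the line and 0.16 with the second. For the 17 regulatory genes the medians were 0.03 in KD4 and -0.11 in KD9, and for the 5 activators -0.90 and -0.19. Without Psme2b, whose reads are hard to part from those of Psme2, the activator medians were -0.54 in KD4 and -0.20 in KD9. The same median over all tested genes was -0.02 in KD4 and -0.06 in KD9. The core and regulatory medians thus lay close to those of all genes. Levels summed per length did likewise, as core genes summed to 2489 in KD4 and 2280 in KD9, against 2332 in Control, and regulatory genes to 2476 and 2298, against 2435. The 5 activators summed to 336 in KD4 and 386 in KD9, against 464 in Control. All members together took 0.541% of the library in KD4 and 0.507% in KD9, against 0.534% in Control.

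The test over the lines called no member. With KD4 and KD9 as replicates against the lone Control, limma (two-sided, Benjamini-Hochberg adjustment over 19950 genes, 1 residual degree of freedom) called 0 members and 0 genes of the whole table in either direction, and the lowest adjusted p of a member was 0.9996. At an unadjusted p under 0.05 it called 0 members, beside 506 genes higher and 535 lower in the table (2.54% and 2.68%). A limma fit in which each column was a library, in the same 2 groups, also called 0 genes. A fit with each column as a library and a term for each line, added after the data were seen, called 4 members lower over the mean of the lines (Psme1, Psme2, Psme2b and Psme3) and 0 higher, where 6.94% and 3.91% of all genes were called. Its p-values measure the spread between the columns of a line. The study describes biological replicates, but the labels do not say whether a line was cultured separately for each of its columns.

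Levels differed widely among members. In Control the measured members spanned 37.0-fold in TPM, with Psmb5 highest and Psmd9 lowest. The core genes needed in every proteasome kept to a narrower range: leaving out Psma8 and Psmb11, they lay between a TPM of 62.5 (Psma2) and 370.1 (Psmb5) in Control. The 6 lowest in Control were the assembly chaperones Psmd5, Psmd9 and Psmd10, the inhibitor Psmf1, the tissue-restricted Psma8 and Psmc3ip, which is not a subunit.

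**Figure D2:**
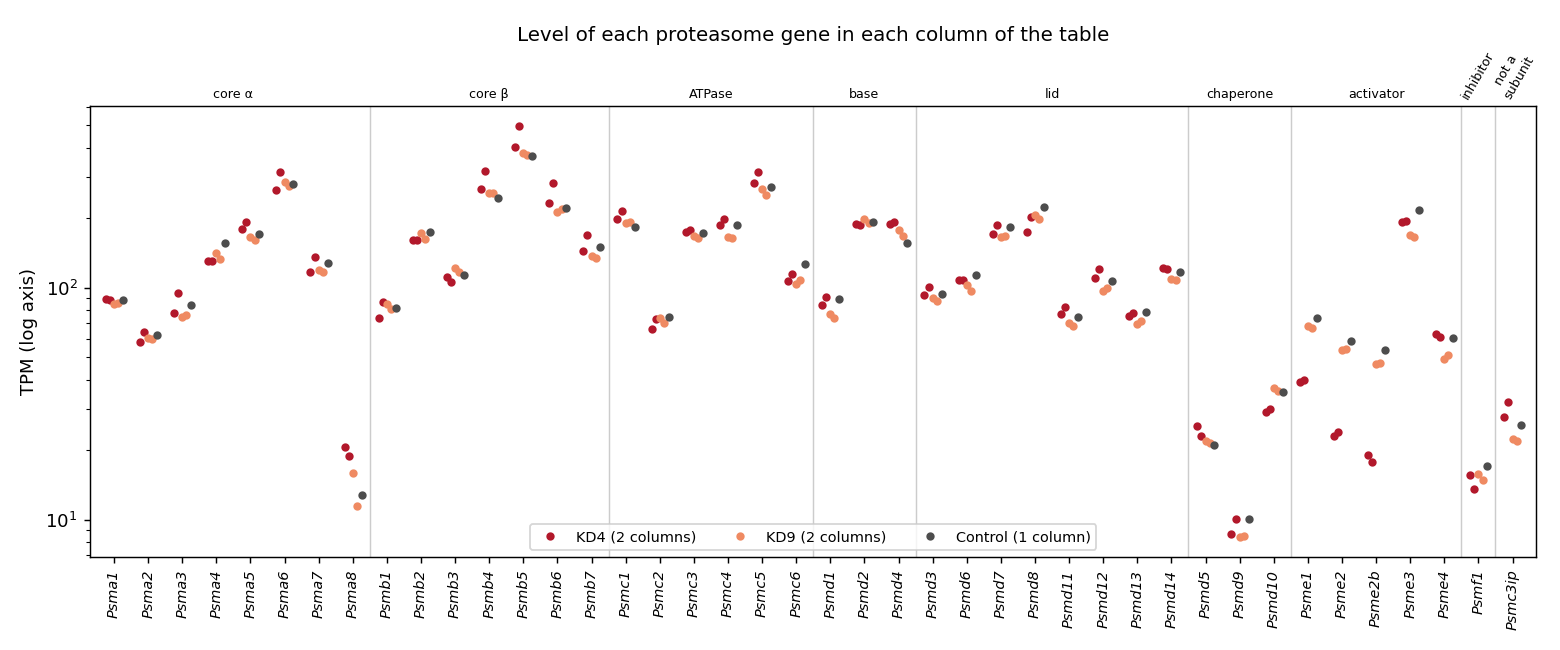
TPM of the 42 measured members on a log axis, by class, with 1 point per column: 2 for KD4, 2 for KD9 and 1 for Control. For most core and regulatory genes the points lie close together, while the KD4 points of Psme1, Psme2 and Psme2b (between 17.7 and 39.9) lie below all others of those genes.

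Psmb5 encodes the chymotrypsin-like catalytic subunit, the site that proteasome inhibitors such as bortezomib bind. It was at a TPM of 402.5 and 494 in KD4 and 379 and 374 in KD9, against 370.1 in Control, with log2 fold changes of 0.28 for KD4 and 0.02 for KD9. All 4 knockdown columns were above Control, but the gap between the KD4 columns was larger than the fold change. Psmb6, the caspase-like catalytic subunit, was at a TPM of 230.5 and 283 in KD4 and 212 and 217 in KD9, against 220.5 in Control. The third catalytic subunit, the trypsin-like Psmb7, was at 144 and 168 in KD4 and 137 and 133 in KD9, against 149 in Control. Neither gene was on one side of Control in all 4 columns.

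Among the other β genes, Psmb4 was at a TPM of 267 and 319 in KD4 and 254.5 and 255 in KD9, against 243 in Control. Psmb2 was at 160.1 and 159.7 in KD4 and 171 and 161 in KD9, against 174 in Control. Psmb4 was thus above Control in all 4 columns and Psmb2 below it in all 4, each by less than the smaller threshold in both lines. Psmb1 had the lowest level among measured β genes, at 73.7 and 86.4 in KD4 and 84.9 and 81.0 in KD9, against 81.5 in Control, with overlapping groups. The remaining β gene, Psmb3, differed from Control by -0.06 in KD4 and 0.07 in KD9 on the log2 scale.

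Of the α genes, Psma6 was the highest, at a TPM of 264 and 315 in KD4 and 284 and 274 in KD9, against 279 in Control. The columns of both lines lay on either side of Control. Psma4 was below Control in every knockdown column, at 131 and 131 in KD4 and 141 and 132 in KD9, against 156 in Control (log2 fold change -0.25 for KD4, -0.19 for KD9). Psma7 was at 117 and 136 in KD4 and 119 and 117 in KD9, against 127.5 in Control. The other 4 constitutive α genes, Psma1, Psma2, Psma3 and Psma5, had log2 fold changes between -0.03 and 0.11 in KD4 and between -0.16 and -0.05 in KD9.

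Psma8 encodes the α subunit that replaces Psma7 in the proteasome of spermatocytes. It was at a TPM of 20.6 and 18.8 in KD4 and 15.9 and 11.4 in KD9, against 12.8 in Control. Both KD4 columns were above Control (log2 fold change 0.62), while the KD9 columns lay on either side of it (0.09) with a gap of 0.47 between them. The fit with a term for each line did not call it in KD4 (limma adjusted p = 0.151). The ratio of Psma8 to Psma7 in TPM was 0.176 and 0.139 in KD4 and 0.133 and 0.098 in KD9, against 0.1003 in Control.

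In the base of the regulatory particle, the ATPase Psmc5 had the highest level, at a TPM of 283.5 and 313 in KD4 and 266.5 and 251 in KD9, against 271 in Control. Psmc1 was above Control in all 4 columns, at 196.5 and 214 in KD4 and 189 and 191 in KD9, against 183 in Control. Psmc6 was below it in all 4, at 106.5 and 114 in KD4 and 104 and 108 in KD9, against 126 in Control (log2 fold change -0.20 for KD4, -0.25 for KD9). Subunits of one hexameric ring thus lay on either side of Control, none of them past the smaller threshold. Psmc4 was at 185 and 197 in KD4 and 164 and 163 in KD9, against 186 in Control, and Psmc2, the lowest of the ATPases, was at 65.9 and 73.2 in KD4 and 74.1 and 70.3 in KD9, against 74.4 in Control. Psmc3 differed from Control by 0.03 in KD4 and -0.06 in KD9 on the log2 scale.

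Psmd4, a ubiquitin receptor of the regulatory particle, had the highest mean fold change of the non-ATPase subunits. It was at a TPM of 187.5 and 192 in KD4 and 177 and 167.5 in KD9, against 155 in Control (log2 fold change 0.29 for KD4, 0.15 for KD9). All 4 knockdown columns were above Control. The fit with a term for each line called it higher in KD4 (limma adjusted p = 0.0486, with 8.37% of all genes called higher) and not in KD9 (adjusted p = 0.204). Psmd1, a large scaffold subunit of the base, was at 83.7 and 91.0 in KD4 and 76.7 and 73.7 in KD9, against 89.4 in Control.

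The lid gene Psmd8 was below Control in all 4 columns, at a TPM of 173 and 201 in KD4 and 206 and 197 in KD9, against 222 in Control. Psmd12 was above Control in KD4 (110 and 120.4) and below it in KD9 (96.8 and 99.5), with 107 in Control. Psmd11, the non-ATPase subunit of lowest mean TPM over the 3 samples, did the same, at 77.1 and 82.5 in KD4 and 70.6 and 68.2 in KD9, against 74.8 in Control. Psmd14, the lid deubiquitinase that removes the chain as the substrate enters, was at 122 and 120.1 in KD4 and 108 and 107 in KD9, against 117 in Control. All 8 lid genes had a log2 fold change below 0 in KD9, beside 57.0% of all genes, and 4 of the 8 in KD4, beside 52.1%. The non-ATPase genes not named with values here, Psmd2, Psmd3, Psmd6, Psmd7 and Psmd13, had log2 fold changes between -0.07 and 0.04 in KD4 and between -0.18 and 0.01 in KD9.

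Counted over columns, 12 of the 42 measured members were below Control in all 4 knockdown columns, beside 30.1% of all genes, and 5 were above it in all 4 (Psmb4, Psmb5, Psmc1, Psmd4 and Psmd5), beside 20.5%. Under rescaling by median ratios the first count became 9 and the second 8, and the shares of all genes were not computed on that scale. Both KD9 columns were below Control for 31 members, beside 49.8% of all genes, and above it for 7, beside 34.7%. For KD4 the counts were 15 below and 15 above, beside 43.9% and 38.5%. Fold changes were below 1 in KD9 for 32 of 42 members, beside 57.0% of all genes, and above 1 for 10, beside 42.9%. After rescaling by median ratios these KD9 counts were 23 below and 19 above, beside 48.6% and 51.3% of all genes. On that scale both KD9 columns were below Control for 22 members, beside 8223 of the 19950 genes, and above it for 14, beside 8591. In KD4, without rescaling, fold changes were below 1 for 22, beside 52.1%, and above 1 for 20, beside 47.8%. For 18 members they were below 1 in both lines, beside 38.2%, and for 6 above 1 in both, beside 28.8%. After rescaling these counts were 13 and 12, beside 6556 and 6812 of the 19950 genes. The members are parts of 1 complex and were measured in the same libraries, so they are not independent counts, and 1 Control column enters all of them.

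The activators differed by line. Psme1 and Psme2 encode the α and β subunits of the ring that binds the immunoproteasome. Psme1 was at a TPM of 39.2 and 39.9 in KD4 and 68.3 and 67.1 in KD9, against 74.1 in Control (log2 fold change -0.90 for KD4, -0.13 for KD9). Psme2 was at 22.8 and 23.9 in KD4 and 53.7 and 54.55 in KD9, against 58.7 in Control (log2 fold change -1.32 for KD4, -0.12 for KD9). Psme2b, a near-identical copy of Psme2 on chromosome 11, was at 19.0 and 17.7 in KD4 and 46.7 and 47.4 in KD9, against 53.8 in Control (-1.54 and -0.19). For all 3 genes the KD4 columns lay far below those of KD9 and Control, and the KD9 columns were a little below Control.

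Over the lines, the mean log2 fold change was -0.52 ± 0.55 for Psme1, -0.72 ± 0.85 for Psme2 and -0.87 ± 0.96 for Psme2b (SD, n = 2 lines), so the spread between KD4 and KD9 was larger than the mean. In the fit with a term for each line, the 3 genes were called lower in KD4 than in Control, where 12.2% of all genes were (limma adjusted p = 0.00532 for Psme1, 0.00431 for Psme2 and 0.00462 for Psme2b). Neither Psme1, Psme2 nor Psme2b was called in KD9 (adjusted p = 0.170, 0.262 and 0.171). The difference between the lines, KD4 minus KD9, was -0.77 for Psme1 (SE 0.04, limma adjusted p = 0.00441), -1.21 for Psme2 (SE 0.04, adjusted p = 0.00358) and -1.35 for Psme2b (SE 0.05, adjusted p = 0.00387). These p-values again rest on the columns of each line. In KD4, Psme2 was further below Control than its partner: the ratio of Psme1 to Psme2 in TPM was 1.72 and 1.67 in KD4 and 1.27 and 1.23 in KD9, against 1.26 in Control.

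Psme2b cannot be read as separate from Psme2. Their transcripts are 99.4% identical over 794 aligned bases, with 5 differing bases, and 59.3% of the 50-base windows of Psme2 occur unchanged in Psme2b. Only uniquely mapped reads were counted, so the share of reads assigned to each gene depends on a few positions, and Psme2b also overlaps an exon of 9930111J21Rik1 on the same strand. Of the 43 members, 12 overlap an exon of another gene in the annotation (Psme1 overlaps Emc9 on the opposite strand), and the counting ran with the default settings of featureCounts, which do not use strand, so strand does not separate the reads of overlapping genes.

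Psme3 encodes the nuclear activator ring that does not depend on interferon. It was at a TPM of 192.5 and 193.5 in KD4 and 168 and 165 in KD9, against 217 in Control (log2 fold change -0.17 for KD4, -0.38 for KD9). All 4 knockdown columns were below Control, and here KD9 was the lower line. The fit with a term for each line called it lower in KD9 (limma adjusted p = 0.0442, with 3.11% of all genes called lower) and not in KD4 (adjusted p = 0.0842), and no member was called higher in KD9, where 1.99% of all genes were. With columns rescaled by median ratios it was no longer more than 20% lower in KD9. Psme4, the single-chain activator known for the proteasomes of testis, was at 63.0 and 61.0 in KD4 and 49.0 and 51.1 in KD9, against 60.4 in Control. Its KD4 columns were just above Control and its KD9 columns below it.

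**Figure D3:**
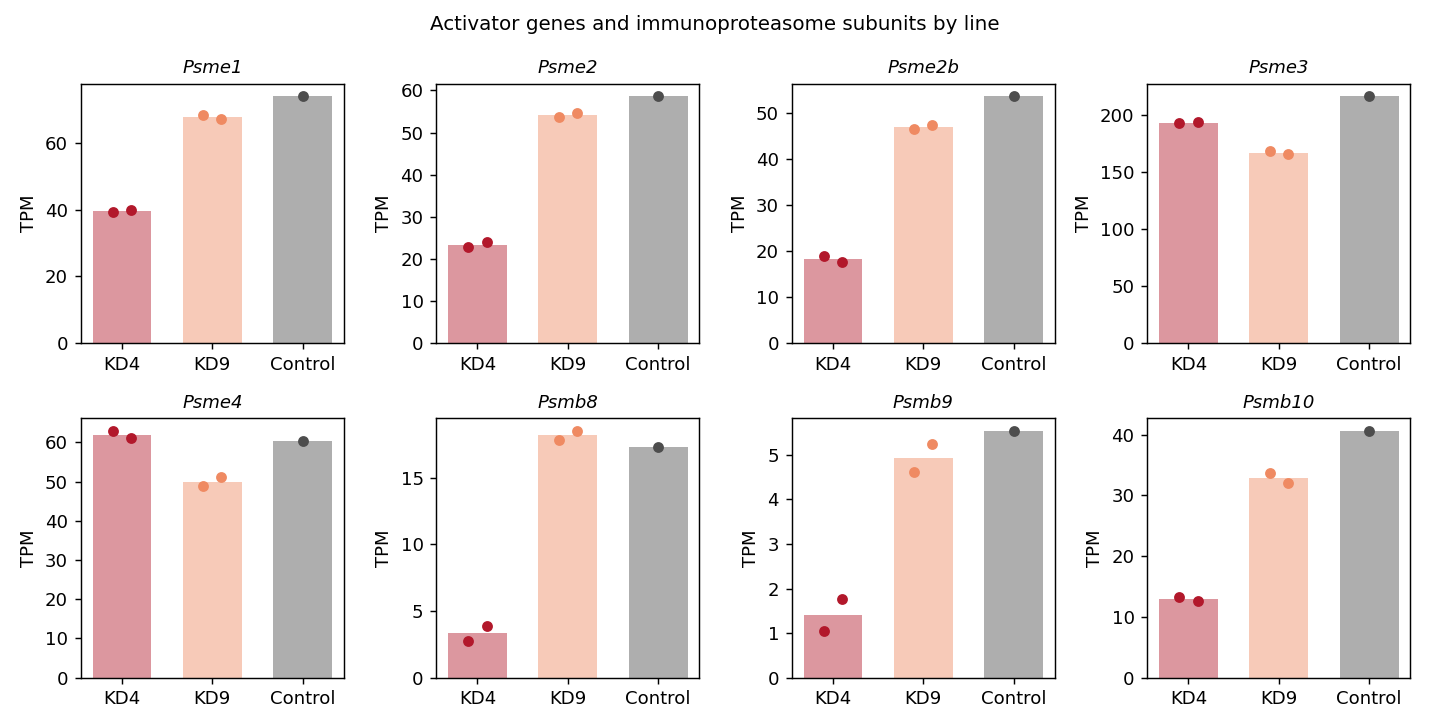
TPM (vertical axes, from 0, each panel on its own scale) of the 5 activator genes and the 3 immunoproteasome subunits in KD4, KD9 and Control. Bars are the mean of the columns of a line and points the columns, with 1 column for Control. Psme1, Psme2, Psme2b, Psmb8, Psmb9 and Psmb10 are lower in KD4 than in KD9 and Control, while Psme3 and Psme4 are lowest in KD9.

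The immunoproteasome subunits, left out of the members by the rule, were read as the known partners of Psme1 and Psme2. Psmb8 was at a TPM of 2.79 and 3.90 in KD4 and 17.8 and 18.5 in KD9, against 17.3 in Control. Psmb9 was at 1.04 and 1.765 in KD4 and 4.61 and 5.23 in KD9, against 5.54 in Control, and Psmb10 at 13.3 and 12.7 in KD4 and 33.7 and 32.1 in KD9, against 40.65 in Control. All 3 were more than 2-fold lower in KD4, with log2 fold changes of -2.34, -1.91 and -1.64, and none was past the smaller threshold in KD9. The constitutive subunits that they replace, Psmb5, Psmb6 and Psmb7, had log2 fold changes of 0.28, 0.22 and 0.07 in KD4.

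Genes of the interferon response, named here after their values were seen, were read in the same libraries. Tap1, a subunit of the peptide transporter that supplies MHC class I, was at a TPM of 6.04 and 6.18 in KD4 and 25.7 and 24.3 in KD9, against 28.9 in Control. Nlrc5, the class I transactivator, was at 1.215 and 1.253 in KD4 and 4.38 and 4.24 in KD9, against 3.56 in Control. Both transporter and transactivator were thus lower in KD4, while in KD9 Tap1 was below Control and Nlrc5 above it. They belong to a list of 7 interferon genes chosen in this way. Of the 7, 6 were more than 2-fold lower in KD4, where 9.50% of all genes were. The genes were chosen with these values known, so that count is not a test and cannot be compared with the share. In KD9 the log2 fold changes of the 7 ranged from -0.86 to 0.46, with 4 above 0 and 3 below.

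The lower activator levels in KD4 came with lower fibroblast markers in the same line. Of 15 markers, 13 were more than 2-fold lower in KD4. In KD9, 0 were more than 2-fold lower and 2 were more than 2-fold higher. The median log2 fold change of the 15 was -2.44 in KD4 and -0.31 in KD9. Col1a1 was at a TPM of 183 in KD4 and 763 in KD9, against 1198 in Control, and Col3a1 at 6.40 in KD4 and 127 in KD9, against 114.5 in Control. Of the 10 pluripotency markers, 9 were higher in KD4 than in Control, and the median log2 fold change of the 10 was 0.68. The exception was Lin28a, lower in both lines (-0.80 in KD4, -1.26 in KD9). In KD9, 5 of the 10 were higher and 5 lower, with a median of 0.08. The part of these fibroblast and pluripotency marker differences in the Psme1, Psme2 and Psme2b values was not tested. In bulk RNA, fewer cells of a type and less RNA per cell cannot be told apart.

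**Figure D4:**
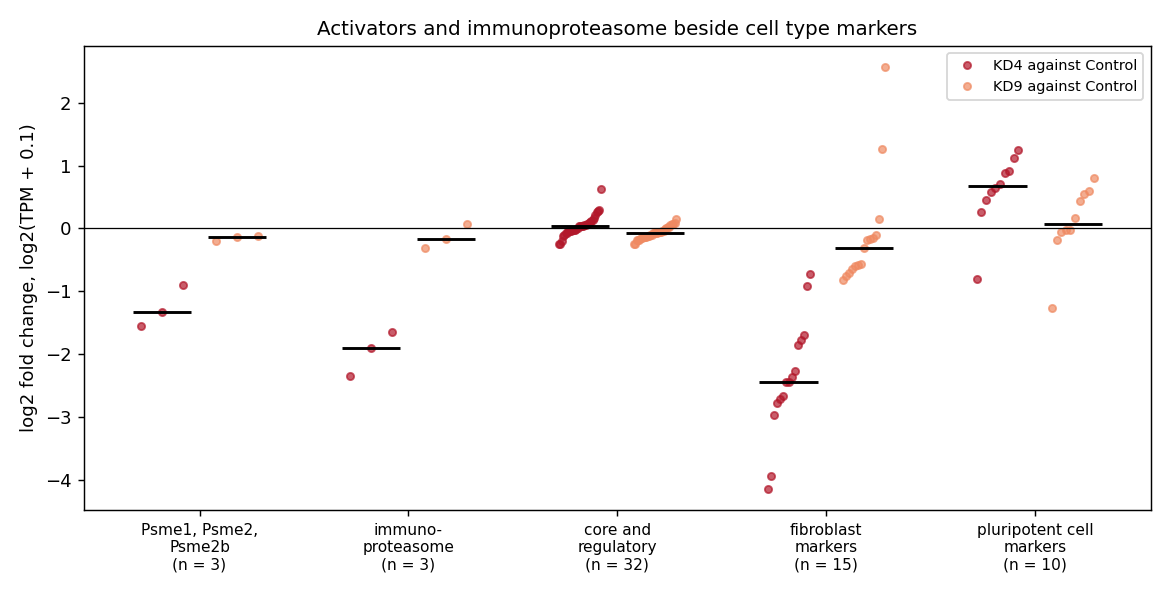
Log2 fold change against Control (vertical axis, log2(TPM + 0.1)) in KD4 and KD9 for 5 gene groups, with 1 point per gene and a bar at the median. In KD4 Psme1, Psme2 and Psme2b, the immunoproteasome subunits and the fibroblast markers all lie below 0, while core and regulatory genes are near 0 and 9 of 10 pluripotency markers above it.

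Psme1 and Psme2 are neighbours on chromosome 14. Psme1 lies at chr14:55578123-55581529 on the forward strand and Psme2 at chr14:55587441-55591113 on the reverse strand (GENCODE M21, mm10), 5911 bases apart. The 12 other tested genes within 50 kb had medians of -0.13 in KD4 and -0.04 in KD9 as log2 fold change. Of those 12 genes, 2 were more than 2-fold lower in KD4, Irf9 (a transcription factor of the interferon response) and Rec8 (a meiotic cohesin), and none in KD9. The lower level of Psme1 and Psme2 in KD4 was therefore not shared by most genes beside them. Psme2b lies at chr11:48945354-48946190 on the reverse strand, and all 4 tested genes within 50 kb, among them the interferon-inducible GTPase Tgtp1, were more than 2-fold lower in KD4 and 2 of them in KD9. These 4 genes were low, at a TPM between 1.69 and 8.88 in Control. In the KD4 columns they were at most at 0.553, near the pseudocount of 0.1. Their annotated spans overlap, so they are not 4 separate measurements.

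The promoter windows of the genes that set the activators apart are shown with that of Psmb5, the most abundant core gene, so that their regulatory letters can be compared. Each window runs from 250 bases before to 50 bases after the RefSeq start (GRCm38.p6), 5′ to 3′ on the strand of the gene. Capitals mark the core of the interferon-stimulated response element (GAAA, any pair of bases, GAAA) in Psme1 and TGACNNNGC, the element of Nfe2l1 and related factors, in Psmb5, each searched on both strands. The windows are chr14:55578244-55578543 (forward) for Psme1, chr14:55591052-55591351 (reverse) for Psme2, chr11:48946361-48946660 (reverse) for Psme2b and chr14:54617946-54618245 (reverse) for Psmb5.
Psme1: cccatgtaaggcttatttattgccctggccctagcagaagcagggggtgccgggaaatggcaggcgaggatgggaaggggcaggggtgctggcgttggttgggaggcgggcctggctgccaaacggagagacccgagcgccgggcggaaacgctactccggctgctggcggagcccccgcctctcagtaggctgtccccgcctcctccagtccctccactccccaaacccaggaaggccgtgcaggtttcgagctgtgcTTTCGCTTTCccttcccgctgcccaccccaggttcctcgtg
Psme2: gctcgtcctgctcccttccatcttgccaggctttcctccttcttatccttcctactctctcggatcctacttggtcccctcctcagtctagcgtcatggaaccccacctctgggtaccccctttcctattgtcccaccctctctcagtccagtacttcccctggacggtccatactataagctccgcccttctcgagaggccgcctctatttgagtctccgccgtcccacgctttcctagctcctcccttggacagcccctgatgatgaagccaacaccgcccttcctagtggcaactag
Psme2b: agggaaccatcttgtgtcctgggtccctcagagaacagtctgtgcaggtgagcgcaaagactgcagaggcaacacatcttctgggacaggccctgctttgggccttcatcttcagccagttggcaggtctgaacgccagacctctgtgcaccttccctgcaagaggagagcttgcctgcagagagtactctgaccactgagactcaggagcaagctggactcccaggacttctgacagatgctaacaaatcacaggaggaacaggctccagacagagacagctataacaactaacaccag
Psmb5: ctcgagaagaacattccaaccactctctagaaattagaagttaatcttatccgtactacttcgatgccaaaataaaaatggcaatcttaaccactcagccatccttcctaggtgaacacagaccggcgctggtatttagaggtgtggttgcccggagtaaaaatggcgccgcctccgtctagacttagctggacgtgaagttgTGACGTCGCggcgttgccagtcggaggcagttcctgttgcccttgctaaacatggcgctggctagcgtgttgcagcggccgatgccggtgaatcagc

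The Psme1 window holds the interferon-stimulated core read on the opposite strand, with its first base at position 10 after the start, and the windows of Psme2 and Psme2b hold neither of these letter patterns. Among the 36 members with a promoter window, 4 held the interferon-stimulated core (Psmb3, Psmd4, Psmd9 and Psme1), beside 3.99% of 27025 genes. This pattern was added after the data were seen. TGACNNNGC was in 6 of 36 members (Psmb5, Psmb6, Psmc6, Psmd9, Psmd12 and Psme4), beside 13.99% of all genes and 18.2% of 2078 other genes that averaged 50 TPM or more. In Psmb5 it begins 47 bases before the start. A match is a description of letters and not a site in use.

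The classes differed in the ETS letters CCGGAAG, which were in 9 of 14 regulatory genes (among them Psmc1, Psmc6 and Psmd4), in 1 of 12 core genes (Psma6) and in 2 of 5 activators (Psme3 and Psme4). The share was 9.93% of all genes and 23.3% of the abundant ones. Psmc1 and Psmd4 were above Control in all 4 columns and Psmc6 below it in all 4, so genes with these letters lay on both sides. The pattern of nuclear respiratory factor 1 (GCGCA, any base, GCGC) was in 6 of 36 members, beside 5.19% of all genes and 14.97% of abundant ones. GGGCGG, bound by Sp1, was in 21 of 36, beside 38.2% and 73.1%, and CCAAT, bound by NF-Y, in 14 of 36, beside 41.1% and 43.0%. None of these patterns contains another in full.

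The lines were also set against each other. Both KD4 columns were above both KD9 columns for 26 of 42 members, beside 38.5% of all genes, and below them for 8, beside 29.9%. The median difference KD4 minus KD9 was 0.11 on the log2 scale over the members and 0.06 over all genes. The fit with a term for each line called 5 members higher in KD4 than in KD9 (Psmc3ip, Psmc4, Psmd14, Psme3 and Psme4), where 14.9% of all genes were called, and 4 lower (Psmd10, Psme1, Psme2 and Psme2b), where 13.4% were. Of the regulatory genes 13 of 17 were above KD9 in KD4 and 1 was below, and of the core genes 8 of 15 were above and 3 below.

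**Figure D5:**
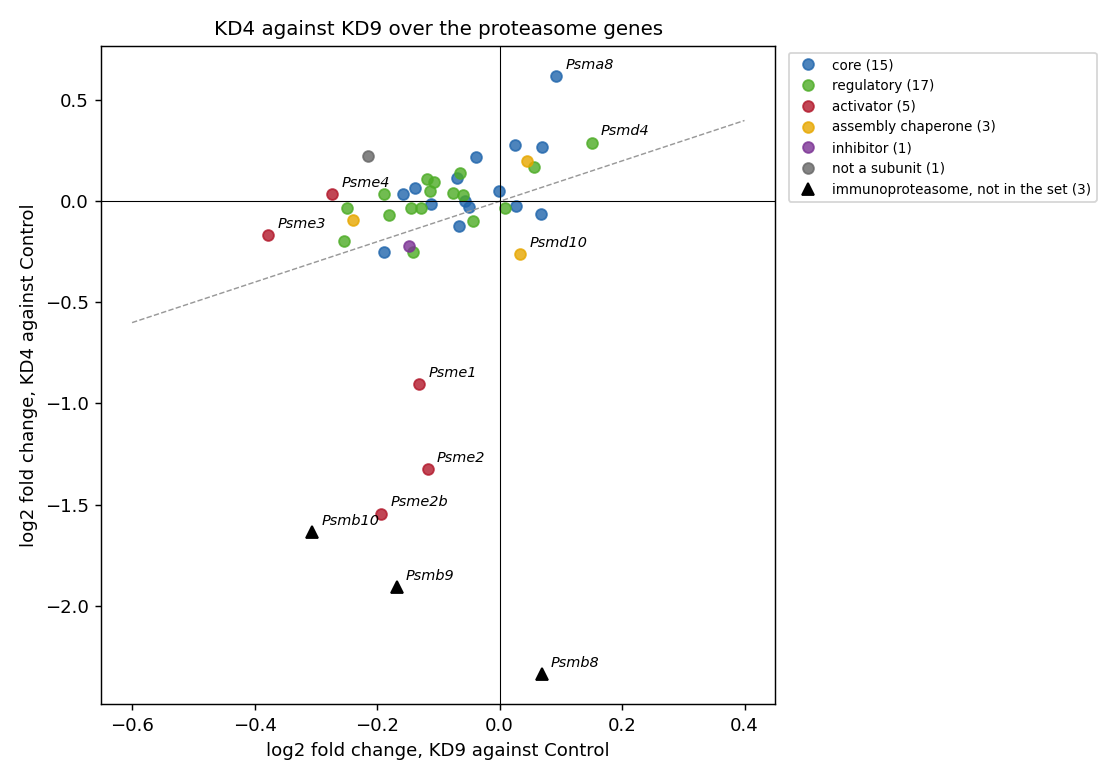
Log2 fold change in KD4 (vertical axis) against that in KD9 (horizontal axis) for the 42 measured members, coloured by class, and for the 3 immunoproteasome subunits. Both axes share 1 Control, and the dashed line marks equal values. Core and regulatory genes other than Psma8 lie between -0.25 and 0.29 on both axes, and Psme1, Psme2 and Psme2b lie between -0.90 and -1.54 in KD4.

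Genes that assist or restrain the proteasome were measured too. Psmd5, Psmd9 and Psmd10 encode chaperones that place the ATPases during assembly. Psmd5 was at a TPM of 25.25 and 22.95 in KD4 and 21.8 and 21.5 in KD9, against 20.97 in Control, above it in all 4 columns. Psmd10, also known as gankyrin, was at 29.2 and 29.9 in KD4 and 36.9 and 35.6 in KD9, against 35.4 in Control, so it was lower in KD4 and close to Control in KD9. Psmd9 was at 8.64 and 10.1 in KD4 and 8.44 and 8.48 in KD9, against 10.01 in Control. Psmf1, the inhibitor PI31, was at 15.5 and 13.5 in KD4 and 15.7 and 14.9 in KD9, against 16.9 in Control, below it in all 4 columns, with log2 fold changes of -0.22 and -0.15 for the lines.

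Psmc3ip is matched by its symbol and is not a subunit: it encodes a protein that aids strand exchange in meiotic recombination. It was at a TPM of 27.6 and 32.3 in KD4 and 22.25 and 21.9 in KD9, against 25.6 in Control. KD4 was above Control and KD9 below it, and the difference between the lines was called by the fit with a term for each line (0.44, limma adjusted p = 0.0448).

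Other genes of the pathway gave few changes past the smaller threshold. Of the 5 chaperones of core assembly (Psmg1 to Psmg4 and Pomp), none was past it in either line. Pomp, which joins the β rings, was at a TPM of 29.4 and 32.5 in KD4 and 31.45 and 29.7 in KD9, against 28.4 in Control. The subunit genes with other names, Adrm1 and Sem1, were also within it in both lines. Of the 8 shuttle factors and unfoldase genes, 1 was past it, Ubqln1, at 146 and 145 in KD4 and 119 and 118.5 in KD9, against 154 in Control.

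Among the 7 genes that switch on proteasome genes, 3 were more than 20% lower in KD4 and 2 in KD9, beside 28.1% and 22.7% of all genes, and Mafk and Ngly1 were lower in both lines. Mafk, a small Maf partner of Nfe2l1, was at a TPM of 20.2 and 24.35 in KD4 and 25.8 and 26.6 in KD9, against 38.0 in Control. Ngly1, the glycanase that Nfe2l1 needs for its activation, was at 4.64 and 4.53 in KD4 and 4.78 and 4.62 in KD9, against 6.13 in Control. Nfe2l1 itself was at 180 and 190.0 in KD4 and 215 and 218 in KD9, against 235.5 in Control. All 3 were below Control in all 4 columns. Nfe2l2, a related factor of the oxidative stress response, was above Control in all 4, at 87.4 and 82.3 in KD4 and 85.1 and 87.8 in KD9, against 74.9 in Control.

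All 5 measured genes of the proteasome-bound deubiquitinases, ligase and adaptor were below Control in all 4 columns, beside 30.1% of all genes. Uchl5, a deubiquitinase of the regulatory particle, was at a TPM of 35.0 and 37.6 in KD4 and 27.6 and 25.3 in KD9, against 38.2 in Control. Ecpas, an adaptor that clamps core and cap together, was at 22.0 and 20.2 in KD4 and 21.1 and 21.9 in KD9, against 26.7 in Control. Usp14, which trims ubiquitin at the cap, was at 56.3 and 56.0 in KD4 and 48.0 and 49.1 in KD9, against 56.9 in Control, and so was close to Control in KD4. Its log2 fold change there was -0.018, and rescaling by median ratios raised KD4 fold changes by a median of 0.02. The count for these 5 genes was not repeated on that scale.

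Among the genes for ubiquitin and its activating enzymes, Ubb and Rps27a were more than 25% higher in KD4 and neither was in KD9. Ubb, which encodes ubiquitin in tandem, was at a TPM of 1204 and 1674 in KD4 and 1178 and 1074 in KD9, against 957 in Control. Uba6, an E1 enzyme for ubiquitin and FAT10, was at 27.8 and 28.5 in KD4 and 25.5 and 26.1 in KD9, against 42.1 in Control. It was more than 20% lower in both lines.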

How the data were processed

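RNA-seq values of 3 E3 ESC samples (KD4, KD9 and Control, passage 7) were used. According to the methods and the processing notes, the authors used Trim Galore for trimming and HISAT2 for alignment to mm10, and featureCounts gave the number of unique reads per gene, from which the deposited TPM values were made. Tool versions and the annotation are missing from the sources used here. Each column sums to 1000000, so depth is unknown and no count model was applied. The columns of a knockdown line (2 each) were averaged as 1 replicate, and 1 more column, which its header names as another control, was left out because no labelled sample matches it. Replicates are clones of 1 cell line, and p-values measure only the spread between these samples.

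Values were set as log2(TPM + 0.1) for the 19950 genes that averaged 0.5 TPM or more. Single lines were described by fold changes, and a p for a single line comes only from the added limma fit on columns. limma 3.58.1 (under R 4.3.3, a linear model with a trended prior, two-sided, Benjamini-Hochberg adjusted p under 0.05, 3.01 prior degrees of freedom) compared both lines with Control, whose spread was taken to equal that of the lines. It was checked on simulated data. The count test of the study's methods could not be run on TPM. Alternatives were pseudocounts of 0.5 and 1, a filter of 5 TPM or none, rescaling by median ratios, single columns, each line left out, and limma on columns.

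Members and gene lists were chosen with earlier results of these data known. Named with values were the activators, chaperones, inhibitor, catalytic subunits, the 2 highest and 2 lowest mean fold changes and the extreme levels of each class, and members past 2-fold. Coordinates are from GENCODE M21 and promoters from RefSeq (GRCm38.p6), the same mouse build. RefSeq windows matched 36 of 43 members. Protein sequences were not analysed here, and some genes of the lists are not reported here. Tables were made with Python 3.11.15.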

Additional observations from a re-analysis of the deposited data

Results flagged for a closer look

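Proteasome genes whose fold change differed between the knockdown lines are listed here with the log2 difference KD4 minus KD9. By the limma fit on columns with a term for each line, added after the data were seen, 9 members differed at an adjusted p under 0.05. Of these, 5 were higher in KD4 than in KD9, where 14.9% of all genes were called, and 4 were lower, where 13.4% were. The difference was -0.77 for Psme1 (adjusted p = 0.00441), -1.21 for Psme2 (0.00358) and -1.35 for Psme2b (0.00387), which were lower in KD4. It was 0.21 for Psme3 (0.0299) and 0.31 for Psme4 (0.0208), which were lower in KD9. The regulatory genes Psmc4 and Psmd14 differed by 0.22 (0.0464) and 0.17 (0.0444), the assembly chaperone Psmd10 by -0.295 (0.0221) and the recombination gene Psmc3ip by 0.44 (0.0448). The labels do not say whether a line was cultured separately for each of its columns, and these p-values measure only the spread between columns.

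A further 7 members had both columns of KD4 on one side of Control and both columns of KD9 on the other, without passing that fit (limma adjusted p between 0.0686 and 0.203). KD4 was the higher line for Psma5 (0.18), Psmb6 (0.26), Psmc3 (0.0906), Psmc5 (0.21), Psmd11 (0.20) and Psmd12 (0.23), and the lower line for Psmb3 (-0.13). In all, 9 members were above Control in KD4 and below it in KD9, beside 11.8% of all tested genes, and 2 were the other way round, beside 8.81%. After rescaling by median ratios the counts were 6 and 1, beside 9.30% and 11.1%: Psma5, Psmb3, Psmb6, Psmc3 and Psmc5 no longer had the lines on opposite sides, Psmc4 did, and Psmd11 and Psmd12 kept them. No group had enough samples for a search for outlying samples.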

How the results depend on the processing

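Of 176 alternative values for class medians and counts, 161 stayed within their limits, as did 112 of 112 for single members. For medians and single members the limit was the SD between KD4 and KD9, which was 0.96 for Psme2b. Counts of 0 that stayed at 0 were also taken as within. Where the lines differ, such limits are hard to leave, so these totals say little about stability. Values near 0 changed sign even so. These were the core median in both lines (below) and the regulatory median in KD4, at -0.017 with the first column of each line. Psma8 in KD9 also did, at -0.16 with the second column. With each line left out, members more than 2-fold lower in the lines kept numbered 0 to 2, those more than 25% higher 0 to 1, and those more than 20% lower 1 to 3, where both lines gave 0 for each; without KD9 only KD4 has to pass. Without a filter, 2 members were more than 20% lower in KD9 and 1 in both lines, since Psmb11 enters. Rescaling by median ratios left 0 members more than 20% lower in KD9, put 8 above Control in all 4 columns, where 5 were without it, and moved the core median in KD9 to 0.022. It shifted the median of all genes by 0.02 in KD4 and 0.07 in KD9 (log2). The first column of each line alone gave a core median of -0.050 in KD4, and the second gave 0.16 and 5 members more than 25% higher in KD4, where the mean of columns gave 1. limma on columns with a term for each line called 4 members lower, and 781 genes higher and 1384 lower in the whole table. No paired analysis was possible because KD4, KD9 and Control share no replicate number that pairs samples. Unknown depth limits every value, most of all for genes below a few TPM, and 1 Control serves both lines.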
